A study of Rattus norvegicus with 36 samples.

Results

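The microRNAs (miRNAs) of the nucleus accumbens (NAc) were compared with those of the prefrontal cortex (PFC) in rats that had self-administered saline. The comparison takes the 6 NAc and the 6 PFC libraries whose labels give saline, 12 of the 36 libraries of the series, and the 706 annotated rat miRNA names among the 861 names in the table. The animals were adult male Sprague-Dawley rats that arrived at 8 weeks of age and had 1 week to settle, surgery and 1 week of recovery before the sessions. They had a jugular catheter and could self-administer saline for 6 h per day in 10 daily sessions. Tissue was taken no later than 60 min after the last session. Both brain regions were dissected from frozen brain, total RNA was extracted with Trizol, and small RNA inserts of 18 to 40 bp were sequenced. The heroin rats used for a second look at the same contrast had the same surgery and sessions, with heroin at 0.075 mg/kg per infusion. The labels call the libraries biological replicates and number them 7 to 12 in both regions of the saline rats, and p-values here measure the spread between these libraries. The labels do not say whether an equal number in both regions marks the same rat. Each library is a piece of whole tissue.

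A miRNA is cut from a hairpin in a longer transcript, and either arm of the hairpin, called 5p or 3p, can be kept as the mature RNA. The mature RNA pairs with messenger RNAs mainly through its seed, bases 2 to 8, and lowers their translation or stability, so miRNAs with the same seed share many targets. Many hairpins lie in introns of protein-coding host genes and can be made from the host's own transcript. The NAc is part of the ventral striatum and consists mostly of inhibitory spiny projection neurons, whereas the PFC is layered cortex in which excitatory pyramidal neurons are the most numerous neurons.

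Of 459 annotated names with enough counts to test, 17 were higher in the NAc (3.7% of those tested) and 16 were lower (3.49%), 33 or 7.19% in all. A name is called higher or lower here where its Benjamini-Hochberg adjusted p in the quasi-likelihood F test of edgeR was under 0.05. The mature sequences of the miRNAs that carry the result are shown first, as RefSeq gives them on the rat assembly GRCr8, with the seed in capitals. 31 of the 33 called names had a sequence there. The miRNAs higher in the NAc were led by a group from introns of Htr2c, the gene of the serotonin 2C receptor, and by the miR-7 family, miR-187, miR-653 and miR-10a.
miR-448-3p: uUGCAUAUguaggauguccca
miR-1298: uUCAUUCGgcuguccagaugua
miR-1912-3p: cACAGAACaugcagugaga
miR-3552: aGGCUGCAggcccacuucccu
miR-7a-5p: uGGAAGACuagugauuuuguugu
miR-7b: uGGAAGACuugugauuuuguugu
miR-187-3p: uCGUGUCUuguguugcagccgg
miR-653-5p: uUGAAACAuucucuacugaac
miR-10a-5p: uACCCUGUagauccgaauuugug

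miR-7a-5p and miR-7b have the same seed and differ by 1 base, A10U, counted from the 5′ end with the base of miR-7a-5p first. The 4 Htr2c miRNAs shown have 4 different seeds. The miRNAs lower in the NAc were led by the muscle miRNA miR-1, the neuronal miR-128, and miR-146b, miR-24-2, miR-184 and miR-132. Shown beside them are miR-206-3p, whose call was lost without PFC replicates 8 and 12, and members of their seed families that were not called.
miR-1-3p: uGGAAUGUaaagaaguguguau
miR-206-3p: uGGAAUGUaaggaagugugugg
miR-1b: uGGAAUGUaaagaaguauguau
miR-128-3p: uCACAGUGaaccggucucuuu
miR-128-2-5p: gGGGGCCGaugcacuguaaga
miR-128-1-5p: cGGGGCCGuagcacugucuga
miR-146b-5p: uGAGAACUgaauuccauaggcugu
miR-146a-5p: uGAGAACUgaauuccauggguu
miR-24-2-5p: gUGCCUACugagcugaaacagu
miR-24-1-5p: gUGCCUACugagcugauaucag
miR-184: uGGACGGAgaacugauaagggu
miR-132-5p: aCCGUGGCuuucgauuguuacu

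Library totals ran from 5.62 to 20.8 M counts (M, 1e+06) in the PFC and from 6.08 to 24.8 M in the NAc, with 550 to 610 and 581 to 608 of the annotated names detected. PFC replicates 8 and 12 stood apart: their log-scale profiles correlated with the other PFC libraries at a mean r of 0.885 and 0.9003, against 0.947 to 0.955 for the other PFC libraries and 0.972 to 0.98 among NAc libraries. The means of the other PFC libraries include their r with replicates 8 and 12. With the NAc libraries PFC replicates 7, 9, 10 and 11 correlated at a mean r of 0.957 to 0.961, higher than within their own region. The median coefficient of variation over names was 52.6% for PFC libraries, 23.2% once these libraries were left out, and 24.8% for NAc libraries. One of the pair was the highest PFC library for 72.3% of the tested names. Fits without this pair are given below. The pair was chosen from these same counts and such fits have less spread in the PFC, so their p-values can be too small. Levels are given as CPM, a miRNA's count per 1e+06 counts of its library. The leading name in both regions was miR-9a-5p, known from neurons and their progenitors, at 15.8% ± 4.74 of the counts in the PFC and 15.5% ± 1.74 in the NAc (SD, n = 6). Its antisense name miR-9b-3p nearly repeated its counts. The next names, leaving out that repeat, were miR-128-3p in the PFC (9.26% ± 7.49) and miR-7a-5p in the NAc (8.41% ± 3.58). 31 pairs of names nearly repeated each other's counts, and in 29 of the 30 pairs with both sequences known the mature sequences are antisense to each other. Such a pair counts as 2 names in the table, and it takes its counts of the library total under both.

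The miRNAs of the Htr2c gene were higher in the NAc in every tested case. Htr2c codes for a serotonin receptor of neurons and choroid plexus. RefSeq places miR-448, miR-1298, miR-1912 and miR-3552 inside Htr2c on its strand. All 5 mature names of these hairpins that could be tested were called higher, beside 3.7% of all tested names. Of these, miR-1912-3p, miR-3552 and miR-448-5p passed the count filter only with their NAc libraries, so they could be tested only where the NAc was high. For these names the call is in part set by the filter. With a minimum count of 50, miR-1912-3p, miR-3552 and miR-448-5p were not tested. miR-448-3p ran from 3.09 to 10.05 CPM in the PFC (median 6.51) and from 52.5 to 70.9 CPM in the NAc (median 60.04). Its NAc libraries lay within a narrow range and none came near a PFC library. The log2 fold change of miR-448-3p was 3.04 ± 0.37 (SE; adjusted p = 6.8e-05 in edgeR's quasi-likelihood test). In bulk tissue, fewer cells of a type and less RNA per cell cannot be told apart.

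miR-1298, the most abundant Htr2c miRNA, ran from 88.0 to 400.001 CPM in the PFC (median 217.9) and from 975 to 2178 CPM in the NAc (median 1550.2). The highest PFC library was replicate 12 and it still lay below every NAc library. For miR-1298 the log2 fold change was 2.66 ± 0.39 (adjusted p = 0.000371 in edgeR's quasi-likelihood test). miR-1912-3p and miR-3552 were rare: the PFC libraries held 28 and 14 counts of them in all, with none in some libraries, against 389 and 254 counts in the NAc. Their log2 fold changes of 3.62 ± 0.64 and 3.73 ± 0.55 were called, without overlap between regions. The other arm of the miR-448 hairpin, miR-448-5p, was also called, at 2.91 ± 0.65, although PFC replicate 12 at 3.13 CPM lay above the lowest NAc library at 2.8 CPM. miR-764-5p, assigned to Htr2c by the list used here and without a mature sequence in the table, was called at 2.41 ± 0.44. It was rare, at 0.144 to 1.24 CPM in the PFC and 1.81 to 4.54 CPM in the NAc. miR-764-5p passed the count filter only with its NAc libraries and was not tested with a minimum count of 50. Limma on log2(TPM + 10) gave it 0.32. The listed Htr2c miRNAs had a median log2 fold change of 2.91 over 5 tested of 7 members, against -0.09 over all 459 annotated names tested. This list was chosen with earlier results of these data known. Since miR-1912-3p, miR-448-5p and miR-764-5p passed the filter only with their NAc libraries, its median is in part set by that filter. The summed level of the list was 94.9 to 409.1 CPM in the PFC and 1062 to 2261 CPM in the NAc.

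**Figure D1:**
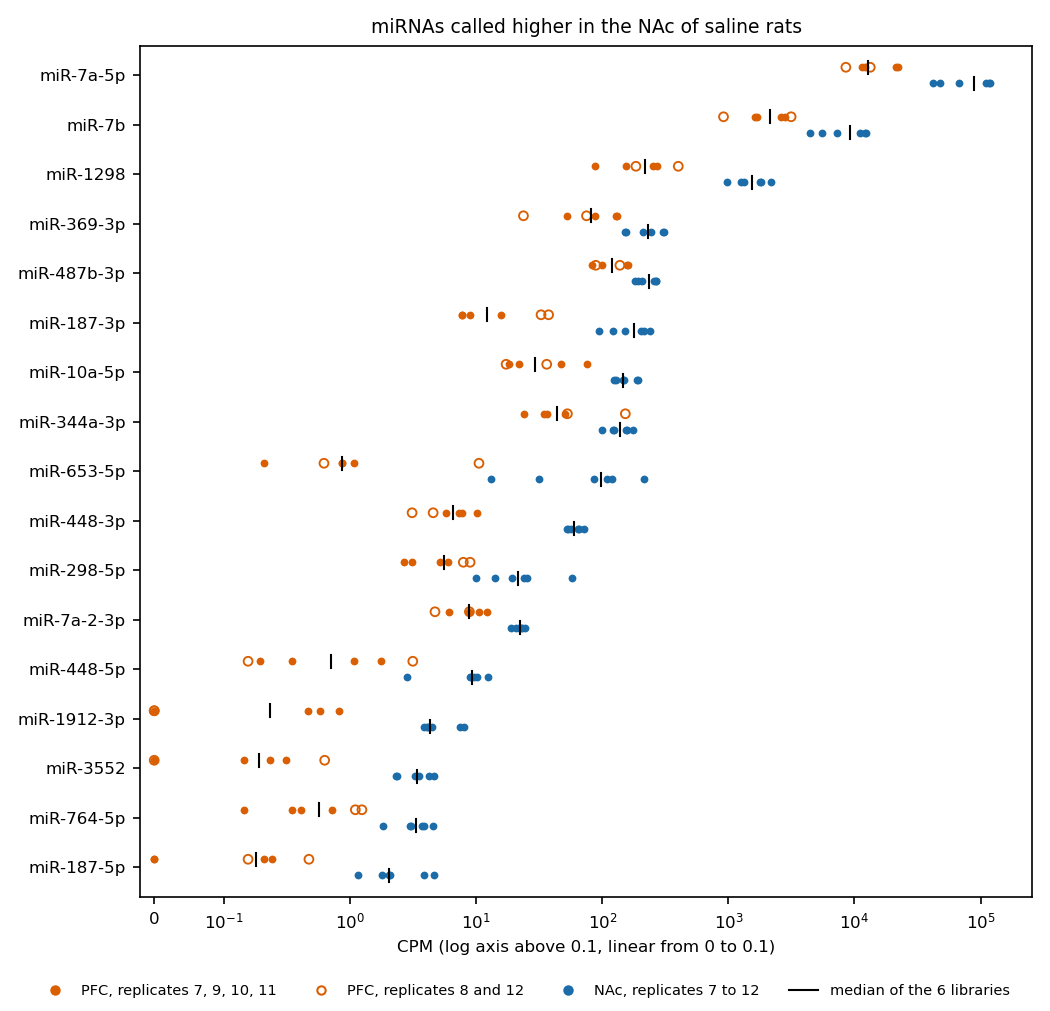
Level in CPM (counts per 1e+06; log axis above 0.1 and linear from 0 to 0.1) of the 17 miRNAs called higher in the NAc of saline rats, with 1 point for each library and a black line at the median of 6 libraries. Open circles are PFC replicates 8 and 12. The regions do not overlap for any miRNA shown but miR-344a-3p and miR-448-5p.

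The miR-7 family includes some of the most abundant miRNAs of the NAc. It is known from neurons and endocrine cells, and the messenger RNA of alpha-synuclein is among its targets. miR-7a-5p ran from 8546 to 22069 CPM in the PFC (median 12765) and from 42062 to 119338 CPM in the NAc (median 89242). NAc libraries 7, 8 and 9 were the lowest of their region at up to 67491 CPM, and each lay above every PFC library. The log2 fold change of miR-7a-5p was 2.36 ± 0.40 (adjusted p = 0.0014 in edgeR's quasi-likelihood test). miR-7b, which differs from it by the base given above, ran from 914 to 3143 CPM in the PFC and from 4458 to 12454 CPM in the NAc, with a log2 fold change of 1.96 ± 0.37. Of the arms that are less often kept, miR-7a-2-3p was called at 1.23 ± 0.30, whereas miR-7a-1-3p, from the hairpin inside Hnrnpk, was at 0.20 ± 0.36 (adjusted p = 0.79). The difference between these arms was not tested. RefSeq lists the mature miR-7a-5p on both of these hairpins, so its counts do not tell them apart.

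miR-187 and miR-653 had some of the steepest differences. miR-187-3p, from a hairpin that lies in no other RefSeq gene, ran from 7.66 to 37.4 CPM in the PFC (median 12.2) and from 94.1 to 239.6 CPM in the NAc (median 178). PFC replicates 8 and 12 were the highest of the PFC, at 32.6 and 37.4 CPM. For miR-187-3p the log2 fold change was 3.24 ± 0.44 (adjusted p = 0.00022 in edgeR's quasi-likelihood test). Its other arm miR-187-5p, at 0 to 0.47 CPM in the PFC and 1.15 to 4.6 CPM in the NAc, was called at 3.79 ± 0.62. This arm passed the count filter only through its NAc libraries and was not tested with a minimum count of 50.

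miR-653-5p comes from an intron of Calcr, the gene of the calcitonin and amylin receptor. It ran from 0.205 to 10.5 CPM in the PFC (median 0.866) and from 13.002 to 216 CPM in the NAc (median 96.9). A single PFC library, replicate 12, lay above 1.07 CPM. For miR-653-5p the log2 fold change was 5.33 ± 0.93 (adjusted p = 0.00156 in edgeR's quasi-likelihood test), the largest of all tested names. It too passed the count filter only with its NAc libraries. The size of this change rests on few PFC counts and ran from 2.79 to 6.88 over the alternatives. miR-653-3p, at up to 0.313 CPM in the PFC and 0.494 to 7.9 CPM in the NAc, had too few counts to be tested over the 12 libraries. miR-489, also of Calcr, was not tested for the same reason.

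miR-10a-5p, encoded among the Hox genes that pattern the body axis, ran from 17.2 to 75 CPM in the PFC and from 123 to 190.4 CPM in the NAc. Its log2 fold change was 1.96 ± 0.38 (adjusted p = 0.00305 in edgeR's quasi-likelihood test). Its relative miR-10b-5p was at 1.43 ± 0.56 and was not called (adjusted p = 0.137), and its regions overlapped. The remaining Hox-cluster names had too few counts to be tested. miR-344a-3p, of a rodent miRNA family, was called at 1.29 ± 0.31, and its highest PFC library, replicate 8 at 152.1 CPM, lay above 3 of the 6 NAc libraries. Its call was lost with library totals as the only scaling. The other 4 tested names of the miR-344 family were not called. miR-298-5p, named after its values were seen, was called at 2.09 ± 0.43.

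2 of 56 tested names of the miR-379 to miR-410 cluster, a large group in the imprinted Dlk1-Dio3 region, were called, beside 7.19% of all tested names, and both were higher in the NAc. miR-487b-3p ran from 82.9 to 159.7 CPM in the PFC and from 181.2 to 268 CPM in the NAc, with a log2 fold change of 0.83 ± 0.23. miR-369-3p ran from 23.6 to 131 CPM and from 152.2 to 309 CPM, at 1.32 ± 0.38. The regions did not overlap for either miRNA. The adjusted p of miR-487b-3p (0.0431 in edgeR's quasi-likelihood test) passed 0.05 without PFC replicate 10 or 11 or any 1 NAc library, with log2 fold changes of 0.74 to 0.93 over the 12 runs that leave out a library. That of miR-369-3p (0.0496) did so without PFC replicate 7, 8 or 11 or any 1 NAc library, at 1.11 to 1.56. Both calls were also lost with the replicate number as a block and with no filter on low counts, and that of miR-369-3p with annotated names only. The cluster as a whole was centred near the median of all names, with a median log2 fold change of 0.07 and 29 positive against 27 negative values.

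Among the miRNAs lower in the NAc, miR-1-3p had the smallest p. It is a miRNA of heart and skeletal muscle that brain holds at low levels. miR-1-3p ran from 42.2 to 78.2 CPM in the PFC (median 48.5) and from 9.57 to 17 CPM in the NAc (median 13.7). PFC replicates 8 and 12 were the highest, at 78.2 and 67.2 CPM, and the other 4 PFC libraries lay between 42.2 and 48.7 CPM. The fit gave miR-1-3p a log2 fold change of -2.11 ± 0.24 (adjusted p = 5.95e-05 in edgeR's quasi-likelihood test). The called name miR-3571 is antisense to miR-1-3p and nearly repeats its counts, so both names hold the same signal.

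The relatives of miR-1 with its seed went the same way with wider spread. miR-206-3p, which differs from miR-1-3p by A11G, A21G and U22G with the base of miR-1-3p first, ran from 15.7 to 164 CPM in the PFC and from 8.27 to 24.7 CPM in the NAc. Its log2 fold change was -1.83 ± 0.46 (adjusted p = 0.0186 in edgeR's quasi-likelihood test), and -0.90 (adjusted p = 0.0846) without PFC replicates 8 and 12. The call of miR-206-3p was also lost without NAc replicate 10 or 11, with adjusted p of up to 0.0533 over the runs without 1 library. Library totals as the only scaling, limma on log2(TPM + 1) or log2(TPM + 10), and the replicate number as a block lost this call too. miR-1b, at 1 difference from miR-1-3p (G17A), was at -0.90 ± 0.45 and was not called over the 12 libraries (adjusted p = 0.229). It was called lower without PFC replicates 8 and 12, at -1.21 (adjusted p = 0.0277). miR-1b ran from 120.4 to 1221 CPM in the PFC and was far more abundant than miR-1-3p in both regions. The striated muscle list had 2 of 5 tested names called lower, beside 3.49% of all tested names, and 1 of 5 without PFC replicates 8 and 12. All 5 were negative, beside 259 of the 459 names tested, and the median was -1.39 over the 12 libraries and -0.61 without PFC replicates 8 and 12. The other names of that list were miR-133a-3p with its antisense name miR-133c, the former at -1.39 ± 0.72, and miR-499-5p at -0.57 ± 0.28. miR-133a-3p and miR-133c nearly repeat each other's counts, so the 5 names are not 5 separate signals, and the list's median is the value of miR-133a-3p. PFC replicate 8 held miR-133a-3p at 69.3 CPM against 10.3 CPM in the next PFC library. Limma-voom gave miR-133a-3p -0.60 (adjusted p = 0.704). The list's summed level was 96.6 to 431.1 CPM in the PFC and 41.9 to 95.5 CPM in the NAc, and its part in the result was not tested.

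**Figure D2:**
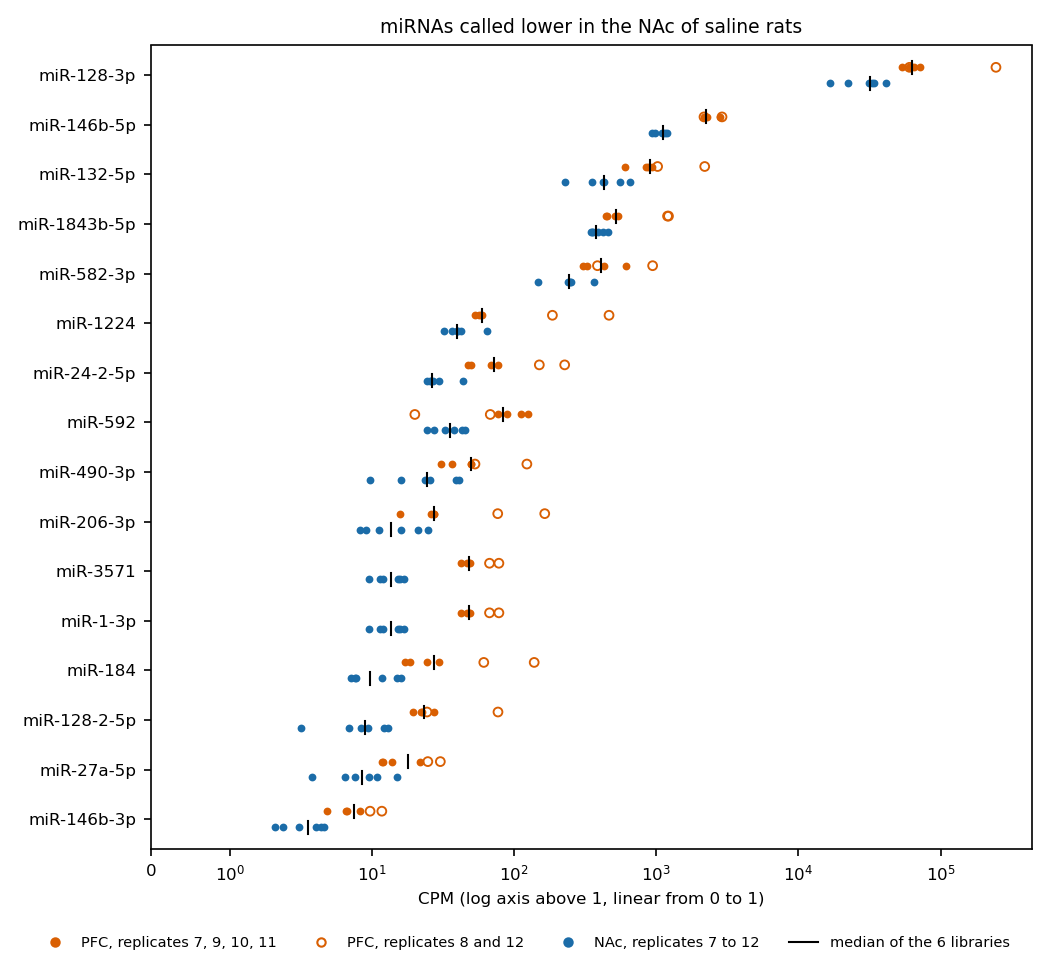
Level in CPM (counts per 1e+06; log axis above 1 and linear from 0 to 1) of the 16 miRNAs called lower in the NAc of saline rats, with 1 point for each library and a black line at the median of 6 libraries. PFC replicate 8 or 12 (open circles) is the highest PFC library for 15 of the 16, and miR-592 is the exception.

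miR-128 is a neuronal miRNA made from hairpins in Arpp21 and R3hdm1, and it is known to dampen neuronal excitability. miR-128-3p, the mature RNA that both hairpins yield, ran from 53436 to 71788 CPM in PFC replicates 7 to 11 and stood at 245029 CPM in PFC replicate 12. In the NAc it ran from 16727 to 41262 CPM (median 32078), so that every NAc library lay below every PFC library. The log2 fold change of miR-128-3p was -1.75 ± 0.39 (adjusted p = 0.0102 in edgeR's quasi-likelihood test) and -1.21 without PFC replicate 12. The opposite arms belong to 1 hairpin each. miR-128-2-5p, of the Arpp21 hairpin, was called at -1.97 ± 0.43 without overlap between regions, and miR-128-1-5p, of the R3hdm1 hairpin, was at -0.96 ± 0.40 and not called (adjusted p = 0.146). Of 15 tested names on the list of brain neurons, the miR-128-3p and miR-128-2-5p just described were the 2 called, beside 7.19% of all tested names. The list's median log2 fold change was -0.50, and 0.13 without PFC replicates 8 and 12. miR-9a-5p was at -0.14 ± 0.24 and miR-124-3p, the miRNA most characteristic of neurons, at -0.59 ± 0.33.

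miR-146b-5p, known from inflammatory signalling, was among the least variable of the called names. It ran from 2166 to 2900.5 CPM in the PFC (median 2232) and from 941 to 1187 CPM in the NAc (median 1109), and the regions were far apart. This gave a log2 fold change of -1.27 ± 0.20 (adjusted p = 0.000585 in edgeR's quasi-likelihood test). Its other arm miR-146b-3p, named after its values were seen, was at -1.29 ± 0.29 and was called. miR-146a-5p, with the same seed but another gene, was at -0.42 ± 0.32 (adjusted p = 0.439), and its libraries overlapped between regions.

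Of the activity-induced hairpin miR-132, the 5p arm was called lower and the 3p arm was not called. miR-132-5p ran from 603 to 2192 CPM in the PFC and from 227 to 651 CPM in the NAc, with a log2 fold change of -1.32 ± 0.30 (adjusted p = 0.0104 in edgeR's quasi-likelihood test). The highest NAc library, replicate 7, lay just above the lowest PFC library. miR-132-3p, the arm studied in synaptic plasticity, was at -0.01 ± 0.27, with 1307 to 1902 CPM in the PFC and 889 to 2481 CPM in the NAc. Its cluster mate miR-212-3p was at 0.19 ± 0.32. The ratio of 5p to 3p counts was tested for 109 hairpins with limma, and 0 were called (0% of those tested). For miR-132 the difference of the log2 ratio, NAc minus PFC, was -1.29 ± 0.39 (adjusted p = 0.232), with -0.94 (adjusted p = 0.105) without PFC replicates 8 and 12 and -0.36 (adjusted p = 0.814) in the heroin rats. For miR-298, with the smallest p, it was 1.56 ± 0.37 (adjusted p = 0.0782). Without PFC replicates 8 and 12 the ratio of miR-298 was called higher at 1.66 (adjusted p = 0.00716) and those of miR-221 and miR-485 were called lower at -1.52 and -1.16. The ratio of miR-298 was also called higher in the heroin rats, at 1.31 (adjusted p = 0.0269 in limma). 11 hairpins had a called name and both arms tested, and 3 of them, miR-448, miR-187 and miR-146b, were called on both arms. miR-369-5p, the other arm of the called miR-369-3p, was at -0.25 ± 0.34.

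In the miR-23a cluster the less abundant arms of miR-24-2 and miR-27a were lower. miR-24-2-5p ran from 47.7 to 227 CPM in the PFC (median 72.8) and from 24.5 to 43.9 CPM in the NAc (median 26.5), without overlap. Its log2 fold change was -1.81 ± 0.34 (adjusted p = 0.0025 in edgeR's quasi-likelihood test), and -1.28 without PFC replicates 8 and 12. miR-24-1-5p, with the same seed and from another cluster, was at -0.88 ± 0.34 (adjusted p = 0.14). miR-27a-5p was called at -1.19 ± 0.35 but lost its call without either PFC replicate 8, 10, 11 or 12 or NAc replicate 8, 9, 10, 11 or 12, at -1.41 to -1.05 over the 12 runs without 1 library. Library totals as the only scaling and limma on log2(TPM + 1) or log2(TPM + 10) lost the call of miR-27a-5p too. The abundant arms of these hairpins, miR-24-3p at -0.97 ± 0.33 and miR-27a-3p at -1.04 ± 0.40, were not called. The list of miR-23, miR-27 and miR-24 clusters had 8 of 10 negative values, beside 259 of the 459 names tested, and a median of -0.90.

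miR-184, known from neural stem cells and the eye, ran from 17.1 to 139 CPM in the PFC and from 7.17 to 15.9 CPM in the NAc. Its PFC level was 139 CPM in replicate 8 and 61.2 CPM in replicate 12, above the other 4 PFC libraries, which reached 29.8 CPM. Its log2 fold change was -2.08 ± 0.44 (adjusted p = 0.00691 in edgeR's quasi-likelihood test) and -1.31 (adjusted p = 0.0125) without PFC replicates 8 and 12. miR-582-3p, from an intron of the phosphodiesterase gene Pde4d, ran from 308 to 943 CPM in the PFC and from 148.2 to 365.4 CPM in the NAc, at -1.04 ± 0.24. The call of miR-582-3p was lost with library totals as the only scaling and with limma on log2(TPM + 1) or log2(TPM + 10), with an adjusted p of up to 0.0944 over all alternatives. That of miR-184 was lost with limma on log2(TPM + 10).

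4 further calls were each lost in at least 6 of the 12 runs that leave out 1 library. All of them were also lost with library totals as the only scaling and with limma on log2(TPM + 1) or log2(TPM + 10). miR-592, from the glutamate receptor gene Grm8, was at -1.38 ± 0.37. Its lowest library of all was PFC replicate 12 at 20.05 CPM, while the other PFC libraries ran from 68.0 to 125.1 CPM and the NAc libraries from 24.3 to 45.1 CPM. Without PFC replicates 8 and 12, miR-592 was at -1.74 (adjusted p = 7.26e-05), but over the 12 libraries its call was lost without PFC replicate 7, 9, 10 or 11 or any 1 NAc library, at -1.59 to -1.25 and an adjusted p of up to 0.0832. miR-1224, from Vwa5b2, was at -1.67 ± 0.45, with PFC replicates 8 and 12 at 465 and 186 CPM against 52.9 to 59.9 CPM in the other PFC libraries and 32.0 to 64.8 CPM in the NAc. Without both, miR-1224 was at -0.64 and not called (adjusted p = 0.0846). It was also lost without PFC replicate 8 or NAc replicate 7, 8, 9, 11 or 12, with -1.83 to -1.14 over the 12 runs. miR-1843b-5p, from Cop1, was at -0.94 ± 0.26 and -0.55 without PFC replicates 8 and 12. miR-1843b-5p was lost without PFC replicate 8, 10 or 11 or any 1 NAc library. miR-490-3p, from the muscarinic receptor gene Chrm2, was at -1.18 ± 0.33 and -0.93 without the pair, and was lost without PFC replicate 7, 8 or 9 or NAc replicate 7, 8, 11 or 12.

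Without PFC replicates 8 and 12, 481 annotated names were tested and 55 were called (11.4%), 33 higher and 22 lower. The pair was left out because its counts stood apart, which by itself narrows the PFC spread, so the p-values of this fit can be too small. All 17 names called higher over the 12 libraries remained, and 11 of the 16 called lower. The 5 lost were miR-206-3p, miR-1224, miR-1843b-5p, miR-490-3p and miR-27a-5p. With library totals in place of TMM factors, 17 names were higher and 9 lower. The calls lost were miR-582-3p, miR-344a-3p, miR-206-3p, miR-1224, miR-592, miR-1843b-5p, miR-490-3p and miR-27a-5p. Limma on log2(TPM + 1) lost the same names except miR-344a-3p. The median log2 fold change of all annotated names was -0.09 with edgeR and 0.11 with limma on log2(TPM + 1). Without PFC replicate 12 alone 28 names were higher, and without NAc replicate 11 alone 10 were lower. 25 of the 33 calls held whichever single library was left out.

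**Figure D3:**
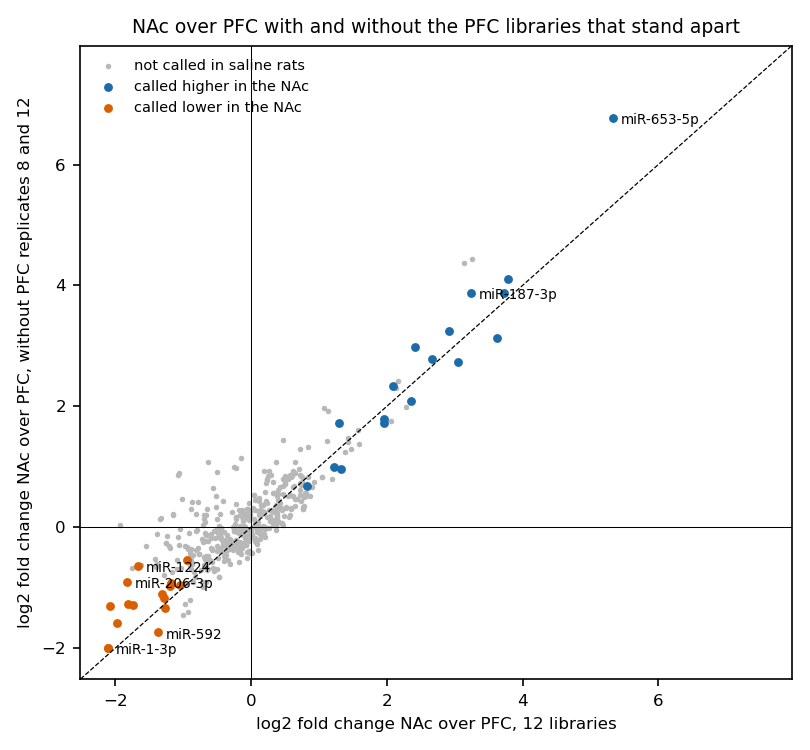
Log2 fold change of NAc over PFC for each tested miRNA over 12 libraries (horizontal axis) and without PFC replicates 8 and 12 (vertical axis), with the dashed line at equal values. The names called higher stay high, miR-653-5p moving from 5.33 to 6.77, whereas miR-206-3p moves from -1.83 to -0.90 and miR-1224 from -1.67 to -0.64.

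For 32 of the 459 tested names (6.97%), the 6 NAc and the 6 PFC libraries did not overlap, and 23 of these 32 were called. The other 9 were miR-505-3p with its antisense name miR-3589, let-7c-5p, miR-153-3p, miR-323-3p, miR-103-3p, miR-1306-5p, miR-106b-3p and miR-148b-5p. let-7c-5p, of the let-7 family of differentiated cells, ran from 8961 to 27305 CPM in the PFC and from 5789 to 8354 CPM in the NAc, at -0.90 ± 0.29 (adjusted p = 0.0771 in edgeR's quasi-likelihood test). miR-103-3p, of an abundant metabolic family, ran from 1009 to 6269 CPM in the PFC and from 7174 to 9889 CPM in the NAc, at 0.77 ± 0.38. miR-153-3p, a neuronal miRNA, was at 0.74 ± 0.27, which is the opposite sign to miR-128. 5 of the 9 were called without PFC replicates 8 and 12: miR-505-3p with miR-3589, let-7c-5p, miR-153-3p and miR-323-3p. These names were chosen for the lack of overlap after their values were seen.

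Over the 12 libraries, marker lists of cell types other than neurons held no call apart from striated muscle, beside 7.19% of all tested names. At that share a list of few names would often hold no call, so the lack of one says little about a cell type. With PFC replicates 8 and 12 left out, blood vessel miRNAs had 1 call of 7 tested and choroid plexus miRNAs 1 of 6, beside 11.4% of all tested names. Blood vessel miRNAs were negative in all 7 tested names with a median of -0.63, and miR-126a-3p of endothelium, at -0.69 ± 0.20, had an adjusted p of 0.0517 in edgeR's quasi-likelihood test and was called without PFC replicates 8 and 12, at -0.62 (adjusted p = 0.0206). Their summed level was 9893 to 21718 CPM in the PFC and 8565 to 15556 CPM in the NAc. Choroid plexus and ependyma miRNAs were positive in 5 of 6 tested names, with a median of 0.79 and summed levels of 343 to 569 CPM in the PFC and 477 to 1126 CPM in the NAc. miR-204-5p, a miRNA of choroid plexus, was at 0.64 ± 0.31 (adjusted p = 0.214). It was called higher without PFC replicates 8 and 12, at 0.90 (adjusted p = 0.0458), and in the heroin rats with the replicate number as a block, at 0.72 (adjusted p = 0.0269). The part of choroid plexus in the Htr2c values was not tested. The epithelial miR-200 and miR-183 clusters were positive in 5 of 5 names, led by miR-200b-3p at 2.29 ± 0.80 (adjusted p = 0.108), with 1.54 to 22.3 CPM in the PFC and 7.87 to 109.9 CPM in the NAc. Of all 459 names tested, 200 were positive and 259 negative. The vessel, choroid plexus and epithelial lists hold arms or cluster mates of the same hairpins, so their signs are not separate signals. The liver miRNA miR-122-5p was at 3.14 ± 1.19 (adjusted p = 0.13), with a median of 1.07 CPM in the PFC and 1.28 CPM in the NAc and a highest NAc library of 92.0003 CPM. The red cell list had 0 of 4 called, and oligodendrocyte, leukocyte and mesenchyme lists had 0 of 6, 0 of 7 and 0 of 2. Oligodendrocyte miRNAs had 3 positive and 3 negative values, and summed levels of 2378 to 5873 CPM in the PFC and 3827 to 5878 CPM in the NAc.

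**Figure D4:**
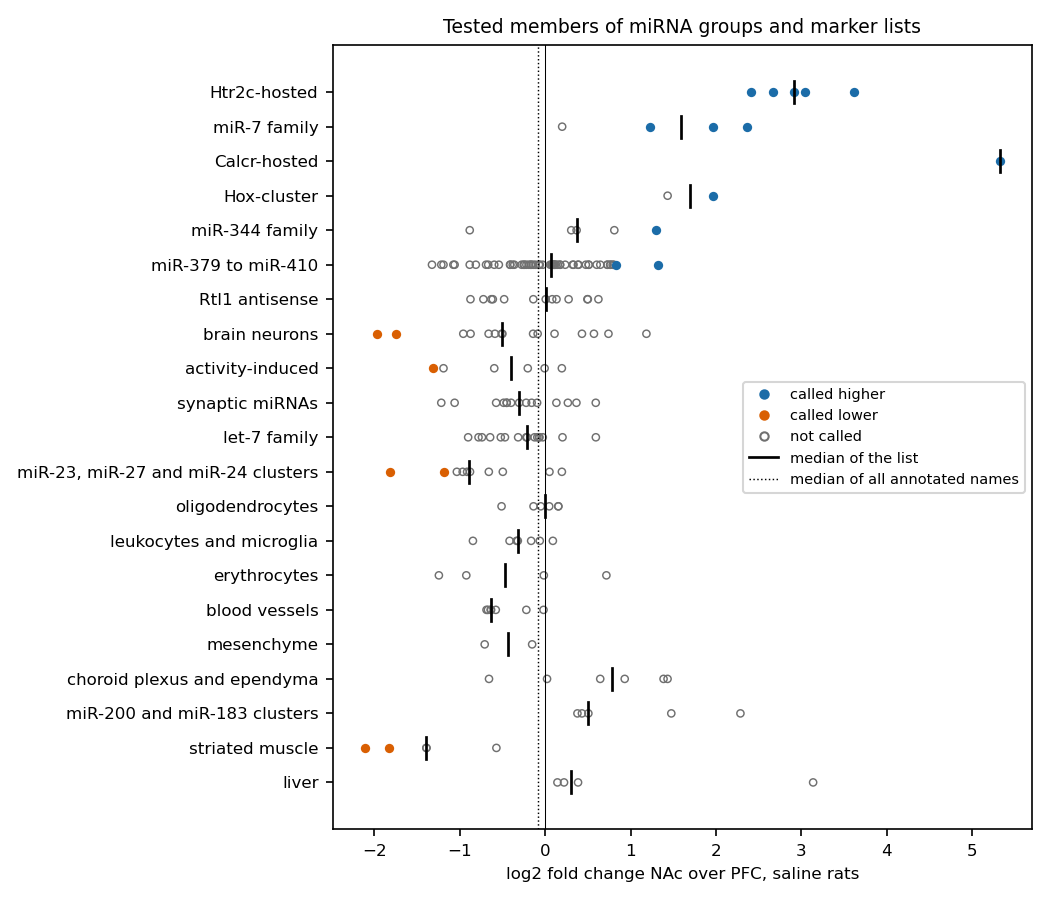
Log2 fold change of NAc over PFC in saline rats for the tested members of miRNA groups and cell type marker lists, filled where called, with a black line at each list's median and a dotted line at the median of all annotated names (-0.09). The Htr2c list runs from 2.41 to 3.62, and the muscle list from -2.11 to -0.57.

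The same contrast in the heroin rats uses none of the saline libraries. 8 of 455 annotated names were called there (1.76%), 3 higher and 5 lower, and 7 of the 8 were also called in saline rats. Among the 7 are both miR-1-3p and its antisense name miR-3571, which hold the same signal. In the heroin rats libraries of the same number deviated from their group means with r of 0.169 to 0.754. With the number as a block 51 names were called (11.2%), 33 higher and 18 lower, of which 19 were called in saline rats with the same sign. The labels do not state this pairing, and the block was chosen from these same counts. With no block, the numbers were 20 and 16 without NAc replicate 2 of the heroin rats, 14 and 11 without their PFC replicate 5, and 5 and 5 without their NAc replicate 1. Of the 32 called names that could be tested, all 32 had the same sign in heroin rats, beside 70.8% of the 452 names tested in both. The 32 also include both miR-1-3p and miR-3571. The values were smaller: the median log2 fold change of the called higher names was 2.41 in saline and 1.64 in heroin rats, and that of the called lower names -1.52 and -0.87. The names were chosen on the saline values and these medians carry no test.

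In the heroin rats miR-653-5p was at 4.61 (adjusted p = 0.0298), miR-344a-3p at 1.62 (adjusted p = 0.00146) and miR-592 at -1.57 (adjusted p = 0.0112), all by edgeR's quasi-likelihood test. miR-1-3p was at -1.37 (adjusted p = 0.0102), miR-146b-5p at -1.04 (adjusted p = 0.0058) and miR-490-3p at -1.15 (adjusted p = 0.0267). miR-448-3p was at 1.83, with an adjusted p of 0.0859 without and 0.00351 with the block. miR-7a-5p was at 1.65, with 0.127 and 0.00351, and miR-187-3p at 2.67, with 0.105 and 0.00351. miR-10a-5p was at 0.70 (adjusted p = 0.523, and 0.125 with the block), miR-128-3p at -0.82 (0.105, and 0.0589 with the block) and miR-1224 at -0.30 (0.507).

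The difference of the regional contrast between saline and heroin rats was tested as an interaction over the 24 brain libraries, and 0 of 491 annotated names were called (0%). In edgeR 19 names had an unadjusted p under 0.05 and the smallest adjusted p was 0.816, and DESeq2 also called 0. The smallest p was that of miR-1224, with a difference of -1.38 on the log2 scale, saline minus heroin (adjusted p = 0.816 in edgeR's quasi-likelihood test).

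**Figure D5:**
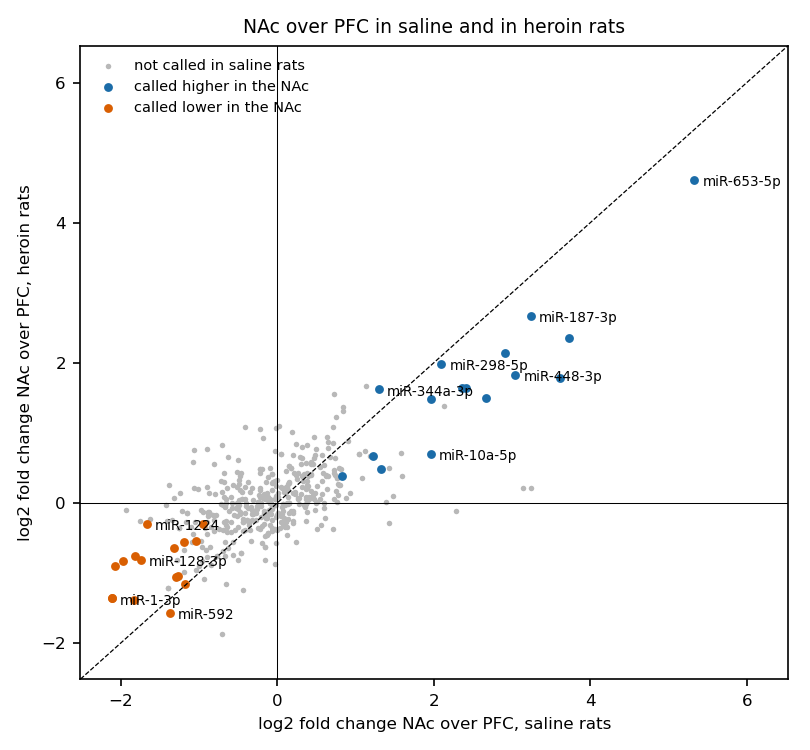
Log2 fold change of NAc over PFC for each annotated miRNA tested in both, in saline rats (horizontal axis) and heroin rats (vertical axis), with the dashed line at equal values. All 32 called names lie in the same quadrant in both, and most lie nearer to 0 in the heroin rats, miR-10a-5p moving from 1.96 to 0.70.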

How the data were processed

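Small RNA of saline rats was sequenced from both brain regions, and the labels gave each library its group. Read counts per mature miRNA and TPM values were deposited, per the file headers, with 1 column of each for each library. TPM there equals the count per 1e+06 counts of the library, with no length term. Per the submitters' processing notes, Bowtie and rn6 are named, with no role or version. The miRNA annotation, and how reads that match several names were counted, are not stated in the sources used here. Counts of the 12 saline libraries were tested in edgeR 4.0.16 (R 4.3.3) by quasi-likelihood F tests. The libraries were scaled by TMM, names were filtered by filterByExpr (minimum count 10), and p-values were adjusted by Benjamini-Hochberg over all 467 names that passed, of which 459 are annotated. The standard error is the absolute log2 fold change over the square root of F. Arm ratios were tested with limma 3.58.1 on hairpins with a mean of at least 20 counts for each arm, after 0.5 was added to each count. DESeq2 1.42.0, limma, other scalings and filters, single libraries left out, and PFC replicates 8 and 12 left out were the alternatives. Among 30 replicate pairs, chi-square over its degrees of freedom was at least 375, so no pair was counted as 1 library. Same-numbered libraries of the regions deviated from their group means with r of -0.196 to 0.527 in saline and 0.169 to 0.754 in heroin rats. The numbers were therefore taken to pair libraries in the heroin rats alone. That choice was made from these same counts and not from the labels. Heroin replicates 1 and 5 had r of 0.169 and 0.211, near the 0.164 of saline replicate 7. The steps were tested on simulated data.

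Named are the 12 largest changes in each direction among calls with at least 100 CPM in the higher region, the 10 leading names, the 6 smallest p in each direction, up to 4 members of each list, the leading arm ratios and interactions, and a panel of neuronal names. Relatives by seed, arm or antisense sequence, and the remaining calls, were added after their values were seen. The members and lists were chosen with earlier results of these data known. Sequences and host genes came from RefSeq on GRCr8, matched by name, with 641 of 706 names found, and no coordinates were used.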

Additional observations from a re-analysis of the deposited data

Results flagged for a closer look

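Over 67 names in both regions, 1 library of a group of 6 lay far from the others in 32 cases. The rule was Dixon's 95% critical value for the gap to the nearest neighbour. Chance gives about 1 in 20 groups where values are normally distributed. CPM was taken without a log, some names repeat each other's counts and some were added after their values were seen, so that rate is only a guide. PFC replicate 8 was the far library in 13 of the 32 cases and PFC replicate 12 in 10. In PFC replicate 8 the level was the highest of its group for miR-1224 (465 CPM), miR-124-3p (3367 CPM), miR-128-1-5p (113 CPM), miR-132-5p (2192 CPM), miR-133a-3p (69.3 CPM) with its antisense name miR-133c (69.1 CPM), miR-146a-5p (454 CPM), miR-184 (139 CPM), miR-212-3p (217 CPM), miR-344a-3p (152.1 CPM), miR-490-3p (123 CPM) and miR-652-3p (149 CPM). It was the lowest for miR-323-3p (307 CPM, the next library 1383 CPM). In PFC replicate 12 the level was the highest for let-7c-5p (27305 CPM), miR-122-5p (9.24 CPM), miR-128-2-5p (77.1 CPM), miR-128-3p (245029 CPM), miR-24-3p (3036 CPM), miR-27a-3p (571 CPM), miR-369-5p (323.4 CPM), miR-653-3p (0.313 CPM) and miR-653-5p (10.5 CPM). It was the lowest for miR-1b (120.4 CPM, the next library 823 CPM).

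The other groups were spread over further libraries. PFC replicate 7 was highest for miR-200b-3p (22.3 CPM). NAc replicate 7 was highest for miR-126a-3p (4847 CPM) and miR-24-2-5p (43.9 CPM) and lowest for miR-448-5p (2.8 CPM). NAc replicate 10 was highest for miR-1224 (64.8 CPM), miR-1b (1059 CPM) and miR-298-5p (57.7 CPM), NAc replicate 11 for miR-92b-5p (22.8 CPM), and NAc replicate 12 was highest for miR-153-3p (266 CPM).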

How the results depend on the processing

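In saline rats, 17 names were higher and 16 lower in the NAc. DESeq2 gave 26 and 30, and 1 fit over all 4 brain groups gave 24 and 36. Library totals as the only scaling gave 17 and 9. Limma gave 21 and 9 on log2(TPM + 1) and 19 and 8 on log2(TPM + 10). Without PFC replicates 8 and 12 the numbers were 33 and 22. Leaving out 1 library at a time gave 15 to 28 higher and 10 to 23 lower, with 28 higher without PFC replicate 12 and 10 lower without NAc replicate 11. Limma-voom, RLE factors, no filter, a minimum count of 50, annotated names only and repeated names entered once stayed within 1.5 times. With the replicate number as a block, 18 were higher and 11 lower, and 26 of the 33 calls remained, the lost ones being miR-206-3p, miR-1224, miR-592, miR-1843b-5p, miR-487b-3p, miR-369-3p and miR-27a-5p. Same-numbered saline libraries did not all deviate together, and 3 of 6 PFC libraries were closest to the NAc library of their own number, against 4 of 6 in heroin rats. Of 33 called names, 22 kept their call under every alternative that tested them, and none changed sign.

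In heroin rats, with 3 higher and 5 lower, DESeq2 gave 19 and 13, the replicate block 33 and 18, and leaving out 1 library 2 to 20 and 4 to 16. The numbers were 20 and 16 without NAc heroin replicate 2, 14 and 11 without PFC heroin replicate 5, and 5 and 5 without NAc heroin replicate 1. Arm ratios had 0 calls in either direction, 1 higher and 2 lower without PFC replicates 8 and 12, and 0 to 1 higher and 0 lower without 1 library, the 1 being without PFC replicate 8 or 11. The interaction stayed at 0 under each alternative. The causes were not tested. Names with few PFC counts, such as miR-3552 and miR-187-5p, moved most with the pseudocount, to 0.39 and 0.30 on log2(TPM + 10).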

Other observations

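27 names were called without PFC replicates 8 and 12 and not over the 12 libraries. That pair was chosen from the same counts, so the p-values without it can be too small. miR-221-5p, whose arm ratio also differed in that fit, was at -1.46 ± 0.19 (adjusted p = 0.000234 in edgeR's quasi-likelihood test), against -1.003 over the 12 libraries. Its PFC libraries ran from 112 to 1346 CPM and its NAc libraries from 305 to 560.2 CPM. miR-652-3p was at 1.44 ± 0.22 (adjusted p = 0.000703) against 0.47, with 148.7 CPM in its highest PFC library and a PFC median of 19.9 CPM. miR-92b-5p was at 1.92 ± 0.43 (adjusted p = 0.0116), and the heroin rats gave 1.66 (adjusted p = 0.0102). miR-653-3p and miR-764-3p, the other arms of called names, passed the filter in that fit and were at 5.28 ± 0.97 and 2.78 ± 0.70. These names were picked after their values were seen.

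The shallowest library held 5.62 M counts (M, 1e+06), so names at under 1 CPM rest on few counts in each library.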
